A study of Homo sapiens with 6 samples.

Results

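Raji cells were examined for 10 genes that set which peptides reach MHC class I: the inducible proteasome subunit genes PSMB8, PSMB9 and PSMB10, their constitutive partners PSMB5, PSMB6 and PSMB7, the PA28 activator genes PSME1 and PSME2, and the endoplasmic reticulum aminopeptidase genes ERAP1 and ERAP2. The 10 genes were picked by symbol, with earlier results of these data known, and all 10 were found among the 23459 rows of the count table. Raji is an established Burkitt's lymphoma line that the labels call germinal centre derived. The 2 groups carried a pLKO.1 lentiviral short hairpin RNA (shRNA), either OBF1sh1 against OBF1 (gene POU2AF1, a B cell coactivator of the Oct factors) or the non-target control SHC002. Both groups were infected for 5 days with virus packaged in 293T cells and selected for 7 days in 3 μg/ml puromycin. Each group had 3 poly(A) RNA libraries, and the labels do not say whether they came from separate cultures, so p-values rest on the spread among the libraries sequenced, which could be technical only. The OBF1 group rests on 1 hairpin, so effects of the hairpin and of lower OBF1 cannot be told apart.

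The 20S proteasome is a barrel whose catalytic sites sit on 3 beta subunits. In haematopoietic cells, and in most other cells after interferon-γ, newly assembled barrels can take PSMB9 (β1i) in place of PSMB6 (β1), PSMB10 (β2i) in place of PSMB7 (β2) and PSMB8 (β5i) in place of PSMB5 (β5), which changes the cut sites and favours peptides that fit class I molecules. PA28, a ring of PSME1 and PSME2, caps the barrel and opens it, and ERAP1 and ERAP2 trim the peptides from their amino ends once TAP has carried them into the endoplasmic reticulum.

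The sequences shown are the promoter stretches in which members carried the letters of an interferon response element, since these letters were found among the inducible 20S, PA28 and aminopeptidase genes. RefSeq promoter windows of build GRCh38.p14, from 250 bases before to 50 bases after an annotated start, were given for 8 of the 10 genes in 12 windows. They were searched on both strands for GAAA, any 2 bases and GAAA again, the core of the element that interferon regulatory factors bind. It was present in 6 of the 8 genes, namely PSMB8, PSMB10, PSME1, PSME2, ERAP1 and ERAP2. Each line gives 30 bases in the direction of the gene with the matched letters in capitals.
PSMB8, chr6:32844032-32844061, minus strand: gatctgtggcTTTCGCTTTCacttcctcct
PSMB10, chr16:67936852-67936881, minus strand: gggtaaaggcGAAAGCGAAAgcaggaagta
PSME1, chr14:24136189-24136218, plus strand: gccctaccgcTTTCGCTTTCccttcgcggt
PSME2, chr14:24146619-24146648, minus strand: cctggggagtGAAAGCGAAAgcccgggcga
ERAP1, chr5:96807924-96807953, minus strand: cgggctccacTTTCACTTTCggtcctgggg
ERAP2, chr5:96876460-96876489, plus strand: tcttagaacaGAAAGTGAAAgcaaaagtaa

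PSMB8, PSMB10, PSME1 and PSME2 held the same 10 letters, read on one strand or the other, and ERAP1 and ERAP2 shared a form that differed from it. Of all 27305 genes with a window, 4.38% held a match, and of all 35116 windows 3.57% did. Among the wider lists described further on, the letters were in 0 of 18 genes of the 19S regulatory particle with a window, 2 of 9 other 20S core genes and 4 of 7 genes of peptide transport and class I loading. The PSMB9 window and both PSMB5 windows held no match to this element. PSMB9 lies next to TAP1, and 1 TAP1 window held 2 overlapping matches, one of them in the stretch ccgctttcgaTTTCGCTTTCccctaaatgg at chr6:32853813-32853842 on the minus strand. The octamer ATGCAAAT, the site of the Oct factors that OBF1 joins, was in none of the 12 windows and in 1.77% of all windows. The NF-κB consensus was in 1 of the 12, the ERAP1 window from which the stretch above was taken but outside the printed bases, and in 11.3% of all windows. The TAP1 window named above, which is not among the 12, held 2 matches to the NF-κB consensus. None of the interferon element matches in the 10 genes overlapped a match to another of the motifs. A match describes the letters of a window and shows no binding.

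Libraries held between 29569281 and 32612429 gene counts, and 12010 genes passed the count filter, all 10 members among them. Values are counts scaled to library size (CPM) with factors from a trimmed mean of log ratios (TMM), and genes were compared by edgeR's quasi-likelihood test with Benjamini-Hochberg adjustment over all tested genes at a threshold of 0.05. The targeted transcript POU2AF1 fell from 514 ± 2.16 to 242 ± 1.66 CPM (SD, n = 3), and its groups did not overlap. All 8 B cell markers were detected, with sums of 2522 to 2591 CPM under the control hairpin and 4215 to 4267 CPM under OBF1sh1. Of the 8, 7 were called higher and 1 lower. Most of the difference between the sums was MS4A1, at 702 CPM under the control hairpin and 2078 CPM under OBF1sh1. Markers of other cells were close to 0. For T and NK cells the 8 markers together gave 0.0640 to 0.238 CPM under the control hairpin and 0.844 to 0.926 CPM under OBF1sh1, mostly NKG7, with CD3D, CD2 and GNLY at 0 throughout. The 8 myeloid markers summed to 2.23 to 2.37 and 2.29 to 2.56 CPM, with MPO and S100A9 at 0. The 8 epithelial or 293T-like markers summed to 0.0893 to 0.254 and 0.192 to 0.211 CPM, with KRT18, KRT19, CDH2 and LGR5 at 0. The part of these markers in the members' changes was not tested. These are bulk samples, in which more cells that express a gene and more RNA per cell cannot be told apart.

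Inducible genes were higher with the OBF1 shRNA and constitutive partners were flat or slightly lower. Among the 10 genes the test called 6 higher and 3 lower, and PSMB5 missed its threshold. Rises of at least 1.5-fold were called for 4 members, PSMB9, PSMB10, PSME1 and PSME2, and falls of that size for 0. Over all tested genes 75.4% were called, 37.5% higher and 37.9% lower, with 12.9% higher and 10.4% lower by at least 1.5-fold, so a call by itself is common in these libraries. The median log2 fold change of the 10 members was 0.50, and that of all tested genes was -0.01.

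**Figure D1:**
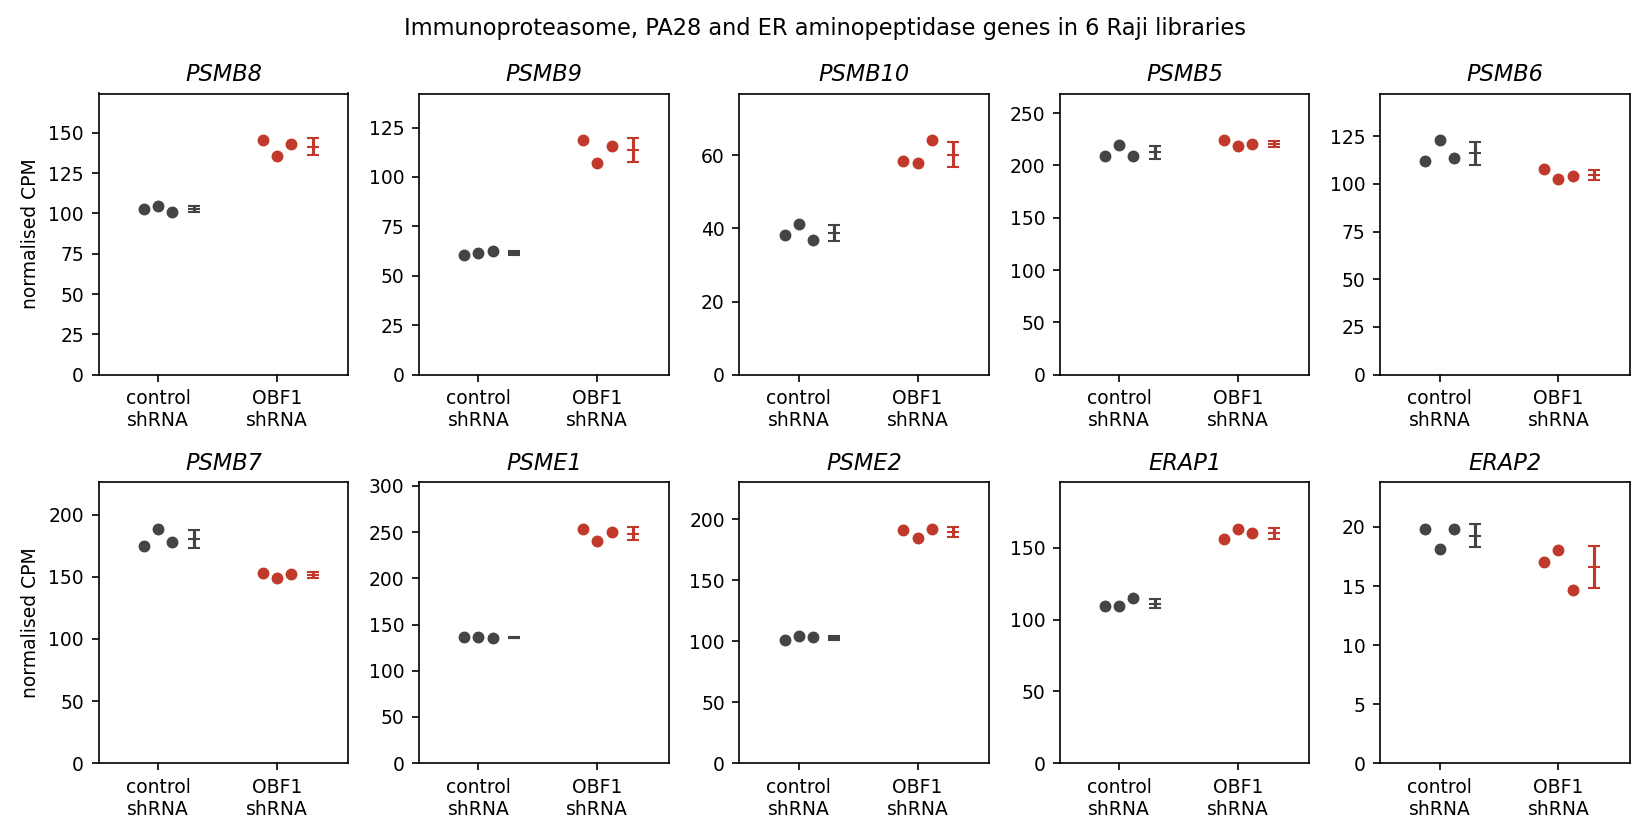
Normalised CPM of each gene (y axis, from 0) in the 3 control shRNA libraries (grey) and the 3 OBF1 shRNA libraries (red), with the mean and SD beside the points. The groups are apart for every gene but PSMB5, and ERAP2 has the smallest gap, between 18.1 CPM in an OBF1 shRNA library and 18.2 CPM in a control library.

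PSMB9, the β1i subunit gene, held 60.4, 61.3 and 62.7 CPM in the control libraries and 119, 107 and 116 CPM in the OBF1 shRNA libraries. Every OBF1 shRNA library was above every control library, and the lowest of them still lay well above the highest control. PSMB9 rose 1.85-fold (log2 fold change 0.89, SE 0.04, edgeR adjusted p = 3.97e-13), close to the rises of PSME1 and PSME2 described further on, and 92.1% of tested genes had a smaller log2 fold change. PSMB10, the β2i subunit gene, held 38.1, 41.1 and 36.8 CPM in control and 58.3, 57.9 and 64.1 CPM in OBF1 shRNA libraries. It was the least abundant of the 3 inducible genes in both groups by CPM, and its groups did not overlap. PSMB10 rose 1.55-fold (log2 fold change 0.64, SE 0.05, edgeR adjusted p = 1.27e-09). PSMB8, the β5i subunit gene, held 103, 104 and 101 CPM in control and 145, 136 and 143 CPM in OBF1 shRNA libraries. Again all 3 OBF1 shRNA libraries were above the controls. PSMB8 rose 1.38-fold (log2 fold change 0.46, SE 0.03, edgeR adjusted p = 3.15e-10), the smallest of the 3 inducible changes. Groups that did not overlap were seen for 76.6% of all tested genes, and for 9 of these 10.

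The constitutive partners moved little. PSMB6, the β1 subunit gene, held 112, 123 and 113 CPM in control and 108, 103 and 104 CPM in OBF1 shRNA libraries. The highest control library stood above the other two, and the groups came within a few CPM of each other without overlapping. PSMB6 was 1.11-fold lower (log2 fold change -0.15, SE 0.04, edgeR adjusted p = 0.0014). PSMB7, the β2 subunit gene, held 175, 189 and 178 CPM in control and 153, 149 and 153 CPM in OBF1 shRNA libraries. All OBF1 shRNA libraries lay below the controls, and PSMB7 was 1.19-fold lower (log2 fold change -0.25, SE 0.03, edgeR adjusted p = 6.77e-07). PSMB5, the β5 subunit gene, held 209, 220 and 209 CPM in control and 224, 218 and 220 CPM in OBF1 shRNA libraries. Its groups overlapped, since the second control library lay inside the OBF1 shRNA range. The log2 difference of PSMB5 was 0.05 (SE 0.03, edgeR adjusted p = 0.0818), and without control replicate 2 it was 0.08 and passed the test (edgeR adjusted p = 0.0134). With library sizes alone in place of TMM, which moved all log2 fold changes by -0.11, its sign turned (-0.05, edgeR adjusted p = 0.0662), while the 6 rises and 3 falls of the other members stayed on their side of the threshold.

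Within each library, each inducible gene was set against its partner as the ratio of counts per base of gene length, a measure that does not depend on how libraries are scaled. All 3 ratios were higher with the OBF1 shRNA. The PSMB9 to PSMB6 ratio was 0.0354, 0.0327 and 0.0362 in control and 0.0720, 0.0683 and 0.0727 in OBF1 shRNA libraries, by the deposited gene lengths. The ratio was thus 2.04-fold higher (log2 difference 1.03, SE 0.05, n = 3 per group). Both the rise of PSMB9 and the fall of PSMB6 enter that value. The PSMB10 to PSMB7 ratio was 0.0803, 0.0803 and 0.0763 in control and 0.141, 0.143 and 0.155 in OBF1 shRNA libraries, a 1.85-fold difference (log2 difference 0.89, SE 0.05). Here too the inducible gene rose and its partner fell. The PSMB8 to PSMB5 ratio was 0.0365, 0.0352 and 0.0357 in control and 0.0481, 0.0461 and 0.0483 in OBF1 shRNA libraries, a 1.33-fold difference (log2 difference 0.41, SE 0.03). This was the smallest of the 3 differences, from the inducible gene with the smallest fold change and a partner that was not called. Each of the 3 ratios differed without overlap between groups (exact permutation test over libraries, two-sided p = 0.1, adjusted p = 0.125 over the 5 ratios tested). With 3 libraries against 3, 0.1 is the smallest p this test allows, so none could pass 0.05.

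**Figure D2:**
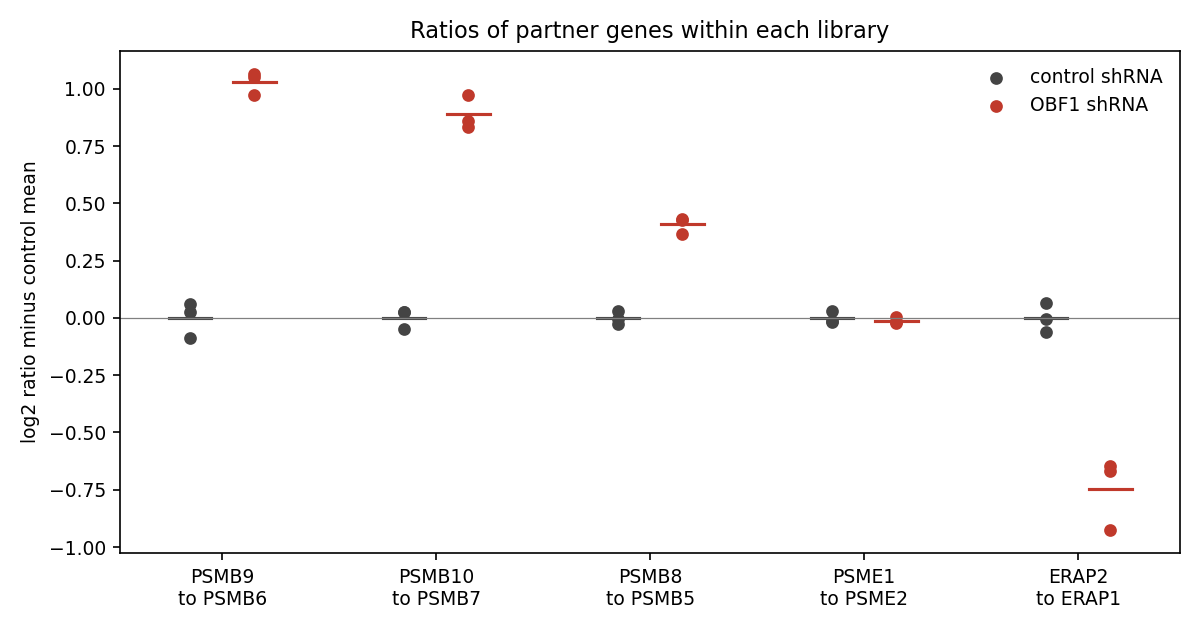
Ratio of partner genes in each library on a log2 scale, with the mean of the control libraries set to 0 (y axis), for control shRNA (grey) and OBF1 shRNA (red); lines mark group means. The 3 inducible to constitutive ratios lie 1.03, 0.89 and 0.41 above control, PSME1 to PSME2 overlaps control, and ERAP2 to ERAP1 lies 0.75 below.

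How much inducible transcript there was relative to its partner depended on the gene length used. The log2 difference between groups could not, because the length of a gene is the same in every library. The deposited length of PSMB8 was 19613 bases and that of PSMB9 13313 bases, whereas their longest protein-coding transcripts in GENCODE v29 have 1351 and 792 bases. Both genes lie in the MHC region of chromosome 6. A second measure was the GENCODE exon length merged over all transcripts of a gene. For 166 genes between HLA-F and TAPBP the deposited length was a median 5.95 times that merged length. It was over 2 times that length for 92.8% of them against 1.55% of all other genes. On this measure PSMB8 stood at 6.54 times and PSMB9 at 4.33 times. PSMB10 lies elsewhere, and its deposited 4784 bases also exceeded its transcript of 1218 bases. With the GENCODE transcript lengths, a choice made after these lengths were seen, the PSMB9 to PSMB6 ratio was 0.584 ± 0.0307 in control and 1.19 ± 0.0404 in OBF1 shRNA libraries (SD, n = 3). On that scale the 3 control libraries held less PSMB9 than PSMB6 and the 3 OBF1 shRNA libraries held more. That crossing depends on the length chosen, since by deposited lengths the ratio was at most 0.0727 in any library. With exons merged over all GENCODE transcripts, PSMB9 has 3072 bases and PSMB6 has 1448. Those lengths would give lower ratios than the transcript lengths, and the ratios were not computed. By transcript length the PSMB8 to PSMB5 ratio was 0.462 ± 0.00865 in control and 0.613 ± 0.0159 in OBF1 shRNA libraries. The PSMB10 to PSMB7 ratio was 0.172 ± 0.00500 and 0.319 ± 0.0165 (SD, n = 3). Both stayed below 1 in every library. How reads that match several copies of the MHC region were counted is not given in the sources used here, so absolute levels of PSMB8 and PSMB9 remain uncertain under either length.

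**Figure D3:**
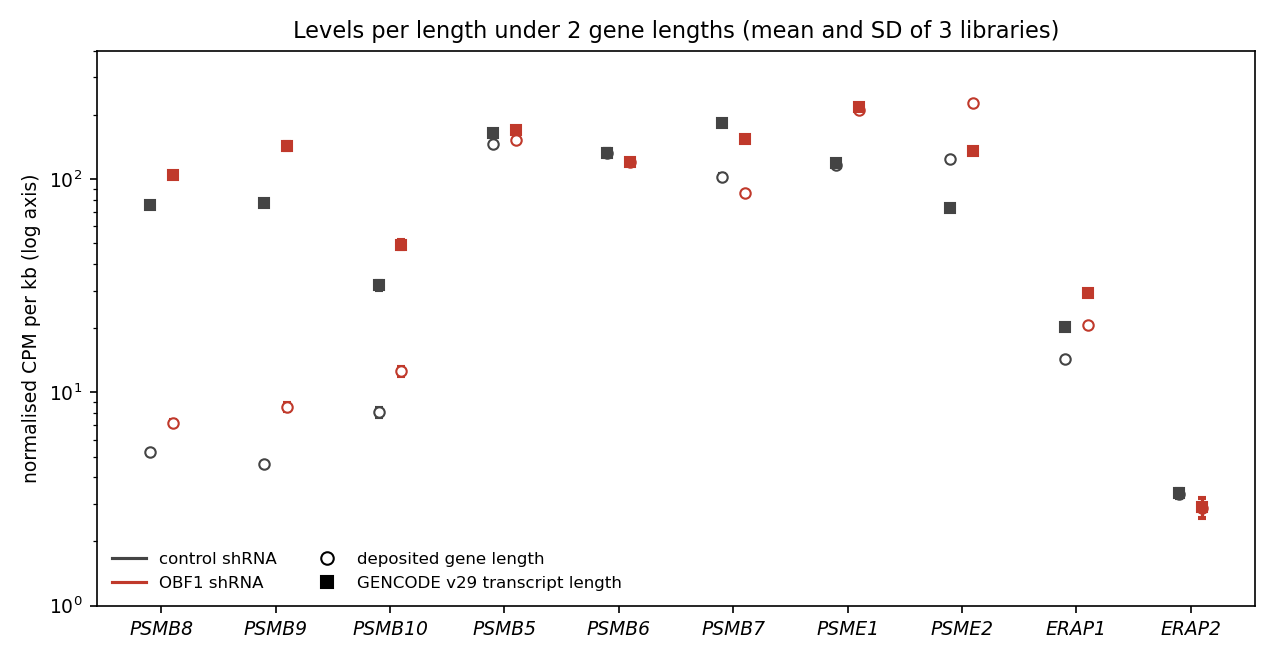
Normalised CPM per kilobase (y axis, log scale) of each gene by the deposited gene length (open circles) and by the longest GENCODE v29 protein-coding transcript (filled squares), as mean and SD of 3 libraries for control shRNA (grey) and OBF1 shRNA (red). PSMB8 and PSMB9 move from under 10 to over 70 with the transcript length. The step from control to OBF1 shRNA within a gene is the same on both scales by construction.

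By GENCODE transcript length, the order of levels in control libraries ran from PSMB7 (184 ± 7.41 CPM per kilobase) and PSMB5 (164 ± 4.87) through PSMB6 (133 ± 6.80), PSME1 (119.5 ± 0.603), PSMB9 (77.6 ± 1.45), PSMB8 (75.9 ± 1.35), PSME2 (73.2 ± 1.25), PSMB10 (31.7 ± 1.79) and ERAP1 (20.2 ± 0.589) to ERAP2 (3.38 ± 0.169; SD, n = 3 for each). The ranges of mean ± SD of PSMB9 and PSMB8 overlapped, and the order of these genes rests on lengths that leave their absolute levels uncertain. In OBF1 shRNA libraries PSME1 led, at 219 ± 5.98 CPM per kilobase, and PSMB9 stood at 144 ± 7.71, above PSMB6 at 120.4 ± 3.09. The lead of PSME1 also depended on length. By deposited length PSME2 stood above it in these libraries, at 228.4 ± 4.965 against 212.1 ± 5.808 CPM per kilobase.

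The PA28 genes rose together. PSME1, the α subunit gene of the activator, held 136, 136 and 135 CPM in control and 254, 241 and 251 CPM in OBF1 shRNA libraries. The control libraries lay almost on top of each other, and the OBF1 shRNA libraries were all far above them. PSME1 rose 1.83-fold (log2 fold change 0.87, SE 0.03, edgeR adjusted p = 3.3e-15). PSME2, the β subunit gene, held 101, 104 and 103 CPM in control and 191, 185 and 192 CPM in OBF1 shRNA libraries. Its groups did not overlap either. PSME2 rose 1.84-fold (log2 fold change 0.88, SE 0.03, edgeR adjusted p = 5.18e-15). The PSME1 to PSME2 ratio was 0.956, 0.928 and 0.925 in control and 0.938, 0.923 and 0.924 in OBF1 shRNA libraries by deposited length. These values overlapped, with a log2 difference of -0.01 (SE 0.02, exact permutation two-sided p = 0.5). Their log2 fold changes stood beside 0.89 for PSMB9 and 0.46 for PSMB8; differences between genes were not tested.

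The 2 aminopeptidase genes moved apart. ERAP1, which trims peptides to the length that class I molecules hold, had 109, 109 and 115 CPM in control and 156, 163 and 161 CPM in OBF1 shRNA libraries. Its groups did not overlap, and it rose 1.44-fold (log2 fold change 0.53, SE 0.03, edgeR adjusted p = 2.35e-11). ERAP2, its neighbour and relative with a different residue preference, had 19.8, 18.2 and 19.8 CPM in control and 17.1, 18.1 and 14.7 CPM in OBF1 shRNA libraries. The groups touched without overlapping, and OBF1 shRNA replicate 3 was the lowest. ERAP2 was 1.16-fold lower (log2 fold change -0.22, SE 0.07, edgeR adjusted p = 0.0106). Without that replicate the log2 fold change was -0.13 and the call was lost (edgeR adjusted p = 0.0948), so the fall of ERAP2 rests on 1 library. The ERAP2 to ERAP1 ratio was 0.242, 0.221 and 0.230 in control and 0.145, 0.148 and 0.121 in OBF1 shRNA libraries by deposited length. It was 1.68-fold lower (log2 difference -0.75, SE 0.10, exact permutation two-sided p = 0.1, adjusted p = 0.125 over the 5 ratios), and without OBF1 shRNA replicate 3 the log2 difference was -0.66. Both genes carry an interferon element match in 1 of their windows, as printed above.

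Several members share exonic bases with another gene, and whether counting used strand is not given, so such reads cannot be assigned with certainty. In GENCODE v29, 20.6% of the exon bases of PSMB8 are also exon bases of the antisense RNA gene PSMB8-AS1, which rose from 16.3 ± 0.243 to 19.7 ± 0.491 CPM (SD, n = 3). CAST, the calpain inhibitor gene that runs against ERAP1 and overlaps 3.76% of its exon bases, rose from 59.3 to 98.8 CPM. PSMB9 shares 5.66% of its exon bases with PSMB8-AS1 on the same strand. PSMB8 and PSMB9 also share 139 exon bases with each other on opposite strands, 4.64% of PSMB8 and 4.52% of PSMB9. PSME2 shares 6.03% with RNF31, and PSMB10 shares 34.8% with AC040162.1 on the same strand. The part of these overlaps in the members' changes was not tested.

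No other listed gene of the 20S core, the 19S particle or the assembly factors changed by 1.5-fold. Of 11 other 20S core genes, 5 were higher and 3 lower, none by 1.5-fold, with log2 fold changes from -0.24 to 0.33 and a median of 0.01. The balance of this list turned with scaling, to 3 higher and 4 lower with upper-quartile factors and to 2 higher and 6 lower with library sizes alone. PSMB4, a non-catalytic β subunit gene, rose from 222 to 280.1 CPM, and PSMA2 of the α ring from 298 to 369.9 CPM. PSMB1 fell from 211 to 179 CPM and PSMA4 from 262 to 243 CPM. Genes of the 19S regulatory particle, which recognises and unfolds ubiquitinated proteins, gave 6 higher and 8 lower of 19, none by 1.5-fold; their median on the log2 scale was -0.03, and there were 4 higher and 12 lower with library sizes alone. PSMC3 (log2 fold change 0.34) and PSMD1 (0.30) had the smallest p-values among those that rose, and PSMC2 (-0.28) and PSMD12 (-0.22) among those that fell. The assembly factors gave 4 higher and 3 lower of 9, or 2 and 4 with library sizes alone, with PSMG4 and PSMD5 up and PSMD10 and PSMG1 down. PSMA8 and PSMB11, subunit genes of testis and thymus, did not pass the count filter.

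The other proteasome caps divided. PSME3, which forms the nuclear activator PA28γ, rose from 275 to 366 CPM (log2 fold change 0.41), and PSME4, the gene of the activator PA200, rose from 199 to 278 CPM (0.48). ECPAS, a scaffold that holds 26S proteasomes, fell by 0.21. PSMF1, the PI31 inhibitor gene, did not pass the test (log2 fold change -0.03, edgeR adjusted p = 0.352), although with library sizes alone it was called lower (log2 fold change -0.14). Among 11 other peptidases that trim or destroy peptides, 7 were higher and 2 lower, and 5 and 2 with library sizes alone, none by 1.5-fold. NPEPPS, the puromycin-sensitive aminopeptidase, rose from 143 to 192 CPM and DPP9 from 83.9 to 103 CPM, while BLMH, bleomycin hydrolase, fell from 165 to 146 CPM. IDE, the insulin-degrading enzyme gene, was lower by 0.09 on the log2 scale (edgeR adjusted p = 0.0209), a call lost with DESeq2 (adjusted p = 0.0503) and without control replicate 3, OBF1 shRNA replicate 1 or OBF1 shRNA replicate 3 (edgeR adjusted p = 0.13, 0.111 and 0.0559).

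Genes that act after and upstream of the members were mostly called higher, as were 7 of the 8 B cell markers, beside 37.5% of all tested genes; whether these shares differ was not tested. Of 8 genes of peptide transport and class I loading, 7 were higher, 2 of them by at least 1.5-fold, and 1 was lower, and with library sizes alone 6 were higher and 1 lower. TAP1, a subunit gene of the peptide pump that lies beside PSMB9, rose 1.67-fold from 112 to 186 CPM, and TAP2, which lies beside PSMB8, rose 1.39-fold from 315 to 437 CPM. CANX, the chaperone calnexin, fell from 1242 to 922 CPM. Of 15 listed regulators in the interferon-γ and NF-κB pathways, 12 were higher, 4 by at least 1.5-fold, and 2 were lower, and with library sizes alone 10 were higher and 3 lower. NFKB2 rose 2.58-fold from 106 to 274 CPM and NFKB1 2.05-fold from 88.4 to 181 CPM. RELA fell from 85.1 to 75.7 CPM and JAK1 from 478 to 437 CPM. Other members of this list were named after their values were seen. The receptor gene IFNGR1 rose from 61.9 to 126 CPM. IRF1, a direct activator of PSMB9, went from 57.0 to 60.7 CPM and was called higher, with overlapping groups (log2 fold change 0.09, edgeR adjusted p = 0.0434). NLRC5, the class I transactivator, rose from 32.7 to 39.5 CPM.

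The 4 listed regulators of constitutive proteasome genes were all called lower under TMM, beside 37.9% of all tested genes. They were also called lower with library sizes alone, a setting that moved log2 fold changes by a median of -0.11, toward falls. NFE2L1, the factor NRF1 that raises proteasome subunit genes when proteasome activity is short, fell from 473 to 307 CPM (log2 fold change -0.63), and its relative NFE2L2 from 138 to 93.2 CPM (-0.57). DDI2 and NGLY1, the protease and glycanase that process NRF1, fell by 0.23 and 0.21 on the log2 scale. Under TMM the other 20S core genes and the 19S genes had median log2 fold changes of 0.01 and -0.03. With library sizes alone these medians were -0.10 and -0.14. The 20S list leaves out PSMB5, PSMB6 and PSMB7, of which PSMB6 and PSMB7 were called lower. Any link between the regulators and these genes was not tested.

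**Figure D4:**
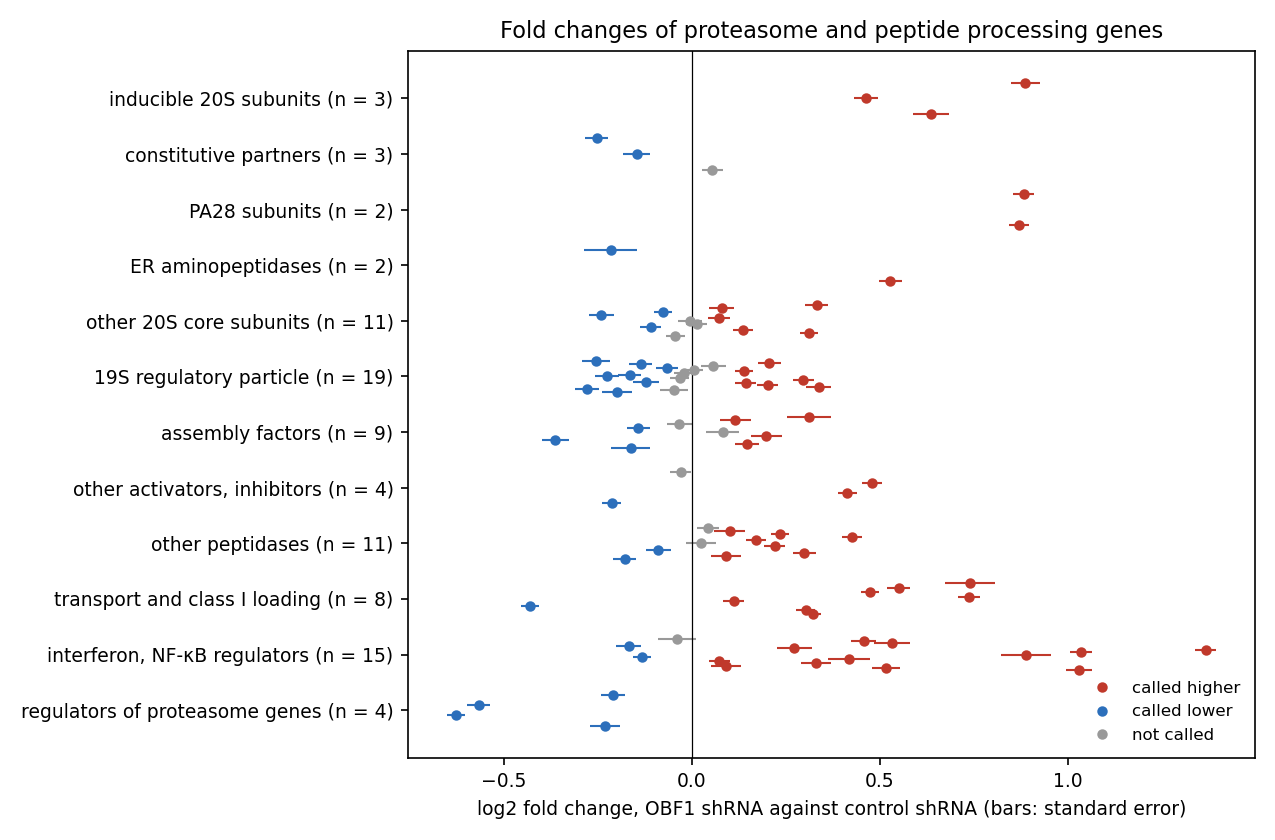
log2 fold change of OBF1 shRNA against control shRNA (x axis) with its standard error for each tested gene, in rows by gene group; red was called higher, blue lower and grey not called by the edgeR test. The inducible 20S and PA28 genes lie between 0.46 and 0.89, while the other 20S core genes lie between -0.24 and 0.33 and the 19S genes between -0.28 and 0.34. Other rows also reach the range of the inducible genes. Transport and class I loading runs from -0.43 to 0.74, and the interferon and NF-κB regulators from -0.17 to 1.37.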

How the data were processed

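The authors deposited 1 table of raw read counts per gene, with 6 count columns and a column of gene lengths; all 6 were used and 0 left out. Per the submitters' processing notes the builds hg19 and mm9 are listed; for aligner, counter, annotation and strand setting, each is not given in the sources used here. Per the labels' protocols a stranded poly(A) kit was used. Of 23459 numeric identifiers, 23308 matched a symbol in a RefSeq table of GRCh38.p14; the other 151 rows held 0.115% to 0.138% of counts.

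Counts were fitted in R 4.3.3 with edgeR 4.0.16 (filterByExpr with min.count 10 and min.total.count 15, TMM, quasi-likelihood F test, no covariate). The standard error is the log2 fold change divided by the square root of F. The fit was tested on simulated data. In that simulation 195 of 11818 genes were called, so it does not cover data in which 75.4% of tested genes are called. Ratios were compared by exact permutation over libraries. Alternatives were DESeq2 1.42.0, voom in limma 3.58.1, other size factors and filters, a replicate block, leaving out each library and GENCODE v29 lengths.

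Members and lists were chosen with earlier results of these data known. The text names all members, POU2AF1, and from each list the 2 called genes with the smallest p-values per direction, or the whole list if it has 4 genes or fewer; other genes were named after their values were seen. Chi-square per degree of freedom between libraries of a group was 1.84 to 3.17; none was treated as a repeat deposit. ERAP2 had the fewest counts of the members, 459 to 625 per library. One listed regulator and 1 motif searched are not reported here.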

Additional observations from a re-analysis of the deposited data

How the results depend on the processing

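The number of called members, 9, was 9 under DESeq2, voom, the other size factors and filters and the replicate block, and 8 to 10 with 1 library left out. Over all genes there were 9058 calls, against 8344 by DESeq2 at the low end and 9547 without a count filter at the high end, and leaving out 1 library gave 8632 to 8974. Calls among the listed pathway genes, 70 (46 higher, 24 lower), ranged from 64 with the replicate block to 70, and 62 to 69 with 1 library left out. With library sizes alone they became 34 higher and 35 lower, and calls over all genes 3476 higher and 5778 lower. The log2 difference of the PSMB9 to PSMB6 ratio was 0.99 to 1.06 with 1 library left out, that of PSMB10 to PSMB7 0.85 to 0.92, that of PSMB8 to PSMB5 0.40 to 0.43, and that of ERAP2 to ERAP1 -0.80 to -0.66. That of PSME1 to PSME2 ran from -0.02 to 0.00. GENCODE lengths, chosen after seeing the data, changed levels between genes. They could not change these differences, because the length of a gene is the same in every library. Same-numbered deviations from the group means correlated at 0.042, -0.204 and -0.142, and those with different numbers at -0.132 to 0.258. These correlations gave no sign of pairing by replicate number. They cannot show how the libraries were prepared, since deviations of 3 libraries from their own mean are tied to each other. With the replicate block 8759 genes and 9 members were called, and paired differences gave 1.03, 0.89, 0.41, -0.01 and -0.75 for the 5 ratios, where 3 pairs allow no exact p under 0.25.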
